A study of Homo sapiens with 20 samples.

Results

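Accessible chromatin was compared between ATRA and DMSO in HL60 cells labelled HK3-null, over the 5451 regions, of 8286 deposited, whose mean ATACseq signal over the 4 HK3-null libraries was 17 or more. HL60 is an established human acute myeloid leukemia line that matures towards neutrophils when given ATRA (all-trans retinoic acid). The HK3-null cells carried the lentiCRISPRv2 vector with Cas9 and a guide against hexokinase 3, and were grown as single clone populations after puromycin selection. Cells labelled HK3-null were given either 1 µM ATRA or its diluent, 0.01% DMSO, for 36 h, and 2 ATACseq libraries and 3 RNAseq libraries were made for each treatment. Cas9 expressing control cells under the same treatments, with the same numbers of libraries, are given beside them where they were compared. A single knockout label covers all HK3-null libraries, and no label says whether replicates came from different clones, so p-values measure only the spread between these samples. The regions nearest the limit had a mean signal of 17.01 inside it, beside others at 17, and of 16.94, 16.97 and 16.99 outside it.

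ATACseq reads where a transposase can cut DNA, so that a high signal marks DNA not packed behind nucleosomes, mostly at promoters and enhancers. ATRA binds retinoic acid receptors, which sit on DNA as partners of the retinoid X receptors and recruit coactivators once the ligand is bound. In myeloid precursors the program that follows includes enzymes that clear retinoids, factors of the C/EBP family, adhesion receptors and the oxidase that makes superoxide, while genes of proliferation decline. Receptor pairs prefer direct repeats of the hexamer AGGTCA or AGTTCA with 5, 2 or 1 bases between them, called DR5, DR2 and DR1.

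Normalized HK3 counts in RNAseq were 344, 302 and 346 in DMSO and 1384, 1285 and 1975 with ATRA for cells labelled HK3-null, and 90, 65 and 105 in DMSO in Cas9 control cells, whose ATRA mean was 1484 against 1548 in HK3-null. HK3 transcript was therefore not lower in the cells labelled HK3-null, the labels could not be checked by it, and no kept region lists HK3. The paper reports that its knockout clones were verified in genomic DNA by sequencing and in protein by mass spectrometry, which these libraries cannot check. The deposited regions are a selection by the authors: signal in HK3-null ATRA was at least 1.65-fold above Cas9 control ATRA in 4553 of them and at least 2.0-fold below it in the other 3733. The comparison with DMSO uses the same HK3-null ATRA libraries, so how many regions open and how many close depends on that selection. The ATRA libraries resembled each other less (Pearson's r = 0.82 across the regions, which are not independent) than the DMSO libraries did (0.959), and 508 regions (9.32%) lay over 2-fold apart between the ATRA libraries against 74 (1.36%) between the DMSO libraries. In 255 regions ATRA replicate 1 stood over 2-fold above replicate 2, with median signals of 61.9 and 14.2 and DMSO medians of 14.0 and 14.8. These 255 regions were short, with a median length of 381 bp against 487 bp for all kept regions, and 10.6% of them lay near a promoter against 28.2% of all. All 6 HK3-null RNAseq libraries expressed the genes of primary granules that mark HL60, with normalized MPO counts between 449325 and 661371 and ELANE counts between 15766 and 32680.

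The next sequences are shown because their regions carry the main results or hold such a direct repeat. They are the central 200 bases of each region, plus strand of GRCh38 (hg38). Capitals mark a match, on either strand, to DR5, DR2 or DR1 or to the ETS core GAGGAAGT. They also mark the pattern TTGCNNCAA, the AP-1 motif TGANTCA and the RUNX motif TGTGGTT. The first is an opening region that holds a DR2.
LOC101928635 and LOC105370835, chr15:58282339-58282538: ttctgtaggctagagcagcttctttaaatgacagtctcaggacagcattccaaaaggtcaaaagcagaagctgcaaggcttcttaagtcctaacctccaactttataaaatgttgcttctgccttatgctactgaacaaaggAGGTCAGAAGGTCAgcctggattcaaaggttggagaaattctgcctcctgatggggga
TGM2, chr20:38132643-38132842: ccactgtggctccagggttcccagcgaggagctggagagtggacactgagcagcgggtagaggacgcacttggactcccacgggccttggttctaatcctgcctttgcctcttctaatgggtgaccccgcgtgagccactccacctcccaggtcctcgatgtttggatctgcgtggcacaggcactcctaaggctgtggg
CYP27A1, chr2:218811479-218811678: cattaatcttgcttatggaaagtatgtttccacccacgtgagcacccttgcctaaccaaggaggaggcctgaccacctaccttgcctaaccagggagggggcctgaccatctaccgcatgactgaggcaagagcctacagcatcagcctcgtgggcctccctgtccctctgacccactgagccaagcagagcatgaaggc
CEBPB-AS1 and CEBPB, chr20:50194444-50194643: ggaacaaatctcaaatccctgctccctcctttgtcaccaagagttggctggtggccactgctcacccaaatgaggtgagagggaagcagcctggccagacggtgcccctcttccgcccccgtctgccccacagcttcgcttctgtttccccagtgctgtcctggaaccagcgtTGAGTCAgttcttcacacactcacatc
RARB and LOC105376997, chr3:25389261-25389460: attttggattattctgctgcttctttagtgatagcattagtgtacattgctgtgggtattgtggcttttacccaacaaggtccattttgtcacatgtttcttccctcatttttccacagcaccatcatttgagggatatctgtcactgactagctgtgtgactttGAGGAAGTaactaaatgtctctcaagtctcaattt
ERG, chr21:38476443-38476642: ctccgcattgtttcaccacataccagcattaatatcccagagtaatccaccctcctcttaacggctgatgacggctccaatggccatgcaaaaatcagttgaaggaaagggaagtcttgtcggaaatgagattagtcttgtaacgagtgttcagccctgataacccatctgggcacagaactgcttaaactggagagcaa
SLC23A1, MZB1, PROB1 and SPATA24, chr5:139389807-139390006: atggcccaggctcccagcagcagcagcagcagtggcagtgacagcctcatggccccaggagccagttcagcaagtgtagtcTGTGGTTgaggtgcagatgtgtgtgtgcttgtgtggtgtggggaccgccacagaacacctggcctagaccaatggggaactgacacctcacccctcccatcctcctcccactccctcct

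ATRA opened 293 regions and closed 510 (5.38% and 9.36% of the 5451 tested) in HK3-null cells. Calls needed a change of 1.5-fold or more together with a p under 0.05 after Benjamini-Hochberg adjustment in limma, fitted on log2(signal + 1) in 1 model of all 8 ATACseq libraries. Opening regions went from a median signal of 18.7 in DMSO to 59.7 in ATRA, with a median fold of 3.04 and a range of 1.8 to 27.1. Closing regions went from 67.6 to 23.4, with a median fold of 2.57 and a range of 1.76 to 17.8. In all 293 opening regions both ATRA libraries lay above both DMSO libraries, and in all 510 closing regions both lay below. The calls were made on these same libraries, so this separation is no further support for them. Its share over all kept regions is not given. DMSO signal was under 10 in 78 of the opening regions, and ATRA signal was under 10 in 44 of the closing ones. The median change over all kept regions was −0.11 on the log2 scale.

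**Figure D1:**
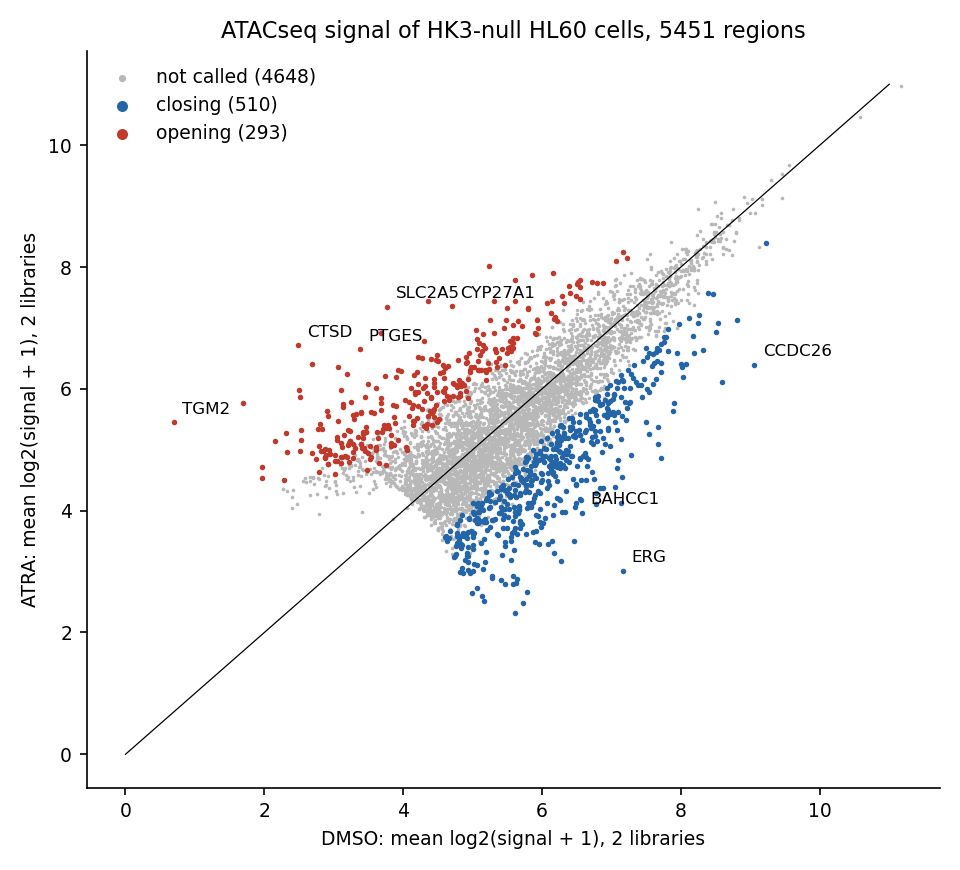
Mean log2(signal + 1) in DMSO (x axis) against ATRA (y axis) for the 5451 kept regions of HK3-null cells, each point 1 region and each mean over 2 libraries. The 293 opening regions (red) lie above the line of equal signal and the 510 closing regions (blue) below it, with TGM2 and ERG farthest from the line on either side.

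The 2 ATRA libraries carried these calls unequally. Without ATRA replicate 1 limma called 148 regions opening and 290 closing, of which 146 and 276 were among the 293 and 510. Without ATRA replicate 2 it called 395 and 581, of which 220 and 428 were among them. Without DMSO replicate 1 the calls were 165 opening and 227 closing, and without DMSO replicate 2 they were 189 and 262. In all 293 and all 510 both ATRA libraries lay beyond both DMSO libraries, so leaving 1 of them out could not change the direction. Of the opening regions, 30 were over 2-fold higher in ATRA replicate 1 than in replicate 2, with medians of 72.2 and 14.8 against 8.79 and 8.94 in DMSO. The 262 opening regions with ATRA libraries within 2-fold of each other had medians of 64.3 and 62.0, against 21.0 and 18.9 in DMSO.

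**Figure D2:**
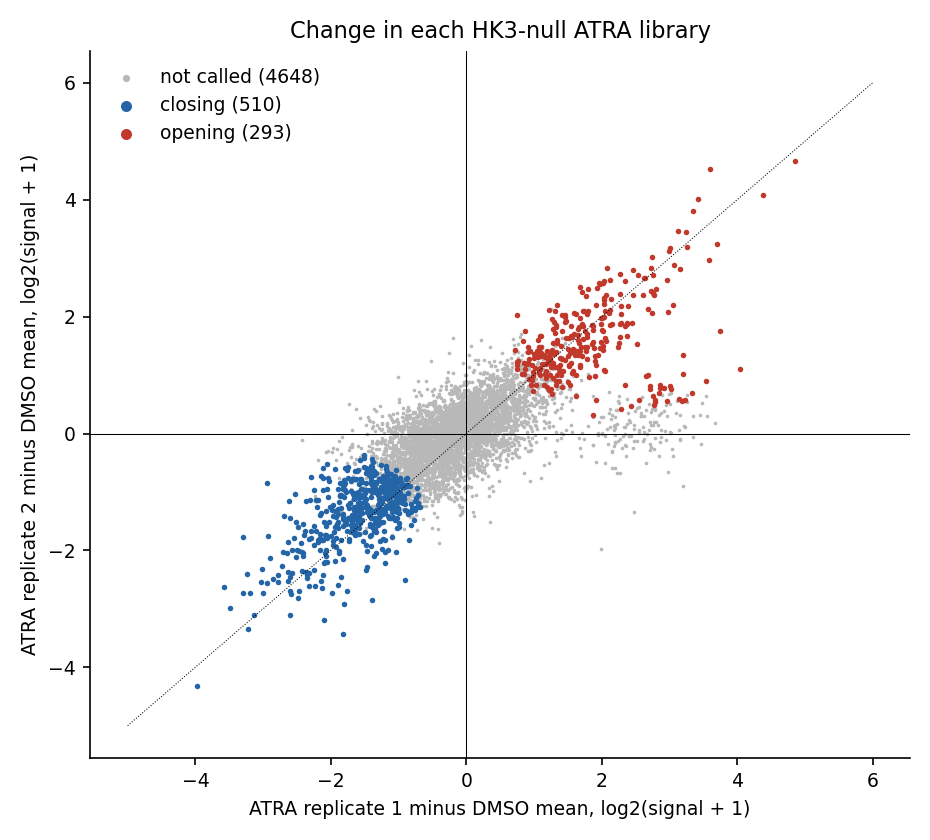
Change in log2(signal + 1) from the DMSO mean in ATRA replicate 1 (x axis) and ATRA replicate 2 (y axis), each point 1 of 5451 regions of HK3-null cells. Most called regions follow the dotted line of equal change, and a separate cloud at the right, high in replicate 1 alone, holds 30 of the 293 opening regions together with regions that were not called.

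Where HK3-null ATRA signal was above Cas9 control ATRA in the authors' selection, 269 of 4222 kept regions opened (6.37%) and 206 closed (4.88%). Where it was below, 24 of 1229 opened (1.95%) and 304 closed (24.7%). Chromosomes 5, 13 and 15 held 19.0%, 23.0% and 14.6% closing regions and 2.26%, 1.82% and 3.37% opening ones. Most of their regions came from the lower side of the selection, 627 against 115, and within that side 20.6% closed there against 29.1% on the other chromosomes. Within the higher side the shares closing were 6.09% and 4.85%.

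Opening and closing regions were mostly intronic or intergenic, and the shares are a description over regions that are not independent. A region whose centre lay within 1000 bp of a GENCODE transcript start was called promoter-proximal. These were 51 of the 293 opening regions (17.4%) and 93 of the 510 closing ones (18.2%), against 28.2% of all kept. Intronic regions made up 43.7% of opening, 46.5% of closing and 41.6% of all regions, and intergenic ones 31.1%, 30.4% and 25.3%. The authors' table listed no gene for 59 opening and 104 closing regions. Median lengths were 441 bp for opening, 547.5 bp for closing and 487 bp for all.

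The AP-1 motif TGANTCA, bound by FOS and JUN dimers, stood in the central 200 bases of 31 opening regions (10.6%) and 108 closing regions (21.2%), against 19.1% of all kept regions. The RUNX motif TGTGGTT stood in 49 opening (16.7%) and 75 closing (14.7%), against 10.6% of all. Among the 262 opening regions with ATRA libraries within 2-fold, the AP-1 and RUNX shares were 11.5% and 18.7%. The ETS core GAGGAAGT, the kind bound by PU.1, stood in 6.83% of opening, 5.49% of closing and 6.7% of all regions, and the C/EBP motif in 2.73%, 2.35% and 1.76%. A DR2 was found in 7 of all 5451 regions, of which 2 opened, none closed and a further one, listing FREM2, had signals of 7.58 and 2.33 in DMSO and 61.8 and 5.58 in ATRA (adjusted p = 0.0839, limma). No opening or closing region held a DR5 or a DR1 in that window, and each was found in 1 of all kept regions.

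Among regions with a mean signal of 50 or more in ATRA, the largest openings included 1 at IFITM10 that also lists a protease gene. Others lay in a sugar transporter gene or had no annotated coding gene. This promoter-proximal region (chr11:1749096-1751428) lies inside IFITM10, 318 bp from an IFITM10 start, and also lists CTSD. Its signals were 4.2 and 5.07 in DMSO and 117 and 93.6 in ATRA. It rose 18.8-fold (log2 4.23, standard error 0.43, adjusted p = 1.03e-06, limma). IFITM10 RNA was low, at 13, 24 and 5 normalized counts in DMSO and 45, 50 and 41 in ATRA (log2 1.96, adjusted p = 0.0471, limma). CTSD encodes cathepsin D, an aspartic protease of lysosomes, and its normalized RNA counts rose from 16451, 16068 and 14862 to 158278, 162525 and 159622. An intronic region of SLC2A5 (chr1:9077930-9078428), the fructose transporter GLUT5, went from 10.3 and 15.5 to 138 and 190 (11.9-fold, adjusted p = 5.66e-07, limma).

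An intergenic region on chromosome 2 with no listed gene (chr2:38545447-38547220) had 5.2 and 5.7 in DMSO and 67.9 and 103 in ATRA. It rose 13.1-fold (adjusted p = 3.6e-06, limma). A neighbouring region with no listed gene (chr2:38545067-38545351) rose more, from 2.78 and 1.78 to 38.2 and 73.9 (16.7-fold, adjusted p = 3.4e-05, limma). This neighbour holds the other DR2 found in an opening region, and its sequence is not printed here. The DR2 region whose sequence is printed above lies within an intron of ALDH1A2, which encodes a retinal dehydrogenase that makes retinoic acid. It went from 8.45 and 6.4 to 72.2 and 91.7 (9.85-fold, adjusted p = 3.6e-06, limma), and was picked for its repeat after its values were seen. Regions listing LOC100289473 and LOC440867 were also among the 6 largest with a mean signal of 50 or more in ATRA, with rises of 11.1-fold and 10.2-fold.

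The largest closing was inside ERG, an ETS factor of stem and progenitor cells. This intronic region (chr21:38476263-38476822) had 157 and 130 in DMSO and 8.12 and 6.18 in ATRA, a fall of 17.8-fold (log2 −4.15, standard error 0.33, adjusted p = 7.7e-08, limma). ERG RNA fell with it, from 120, 112 and 132 normalized counts to 45, 43 and 65 (log2 −1.27, adjusted p = 0.000721, limma). The RNA counts of the treatments did not overlap, while for the region non-overlap was required by the rule that named it.

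A pair of regions at the start of MZB1, which encodes a chaperone of the endoplasmic reticulum known from B-lineage cells, closed in parallel. The first (chr5:139388312-139388906) went from 73.2 and 78.9 to 5.47 and 11.5, and the second (chr5:139389729-139390084) from 65.4 and 68.0 to 18.2 and 5.27. They fell 8.55-fold and 6.17-fold (adjusted p = 1.28e-06 and 8.88e-05, limma). MZB1 RNA fell from 457, 459 and 413 normalized counts to 56, 37 and 21 (log2 −3.65, adjusted p = 7.45e-07, limma). The regions also list SLC23A1, PROB1 and SPATA24, with log2 changes of −0.99 for PROB1 and −0.69 for SPATA24 that were not called. SLC23A1 had 3, 2 and 1 counts in DMSO and 2, 0 and 0 in ATRA, too few to give a fold, and its call as lower (adjusted p = 0.0223) was lost with counts of 0 set to 1 (adjusted p = 0.364, limma).

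The other large closings were in introns or between genes. A region in TMPRSS9, also listing TIMM13 and LMNB2, went from 146 and 135 to 13.3 and 20.4 (8.07-fold). TMPRSS9 RNA fell from 24, 36 and 30 normalized counts to 5, 8 and 5. A region in CTNNA2, whose RNA was listed at 0 in all 6 HK3-null libraries, went from 95.0 and 79.7 to 8.62 and 12.3 (7.77-fold). Regions on chromosome 13 with no listed gene and on chromosome 16 near LOC100996338 fell 9.43-fold and 8.68-fold.

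**Figure D3:**
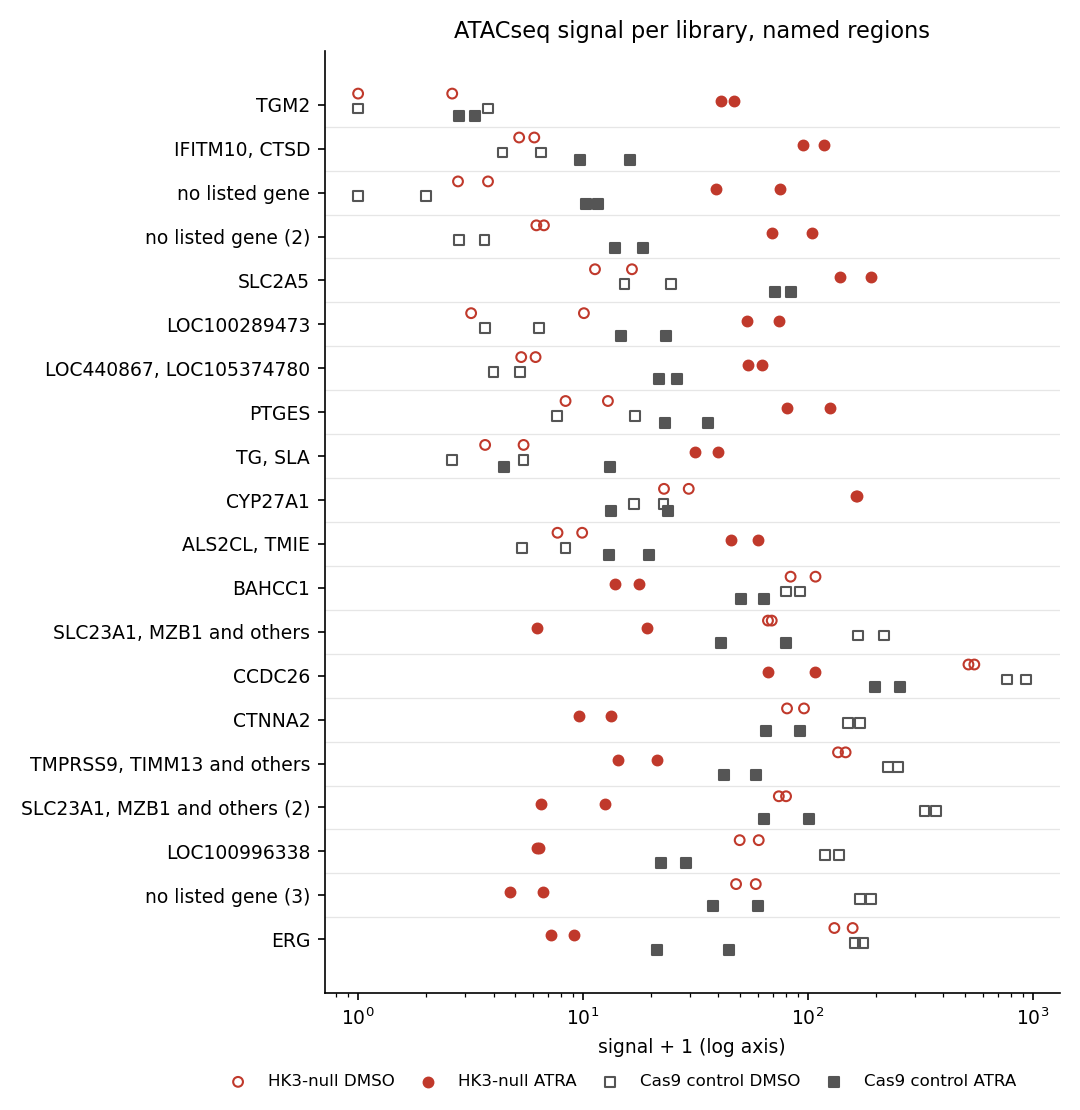
ATACseq signal plus 1 (log x axis) of each library in the regions with the largest changes and in those paired with a gene that changed the same way, from the largest rise at the top to the largest fall at the bottom. Circles are HK3-null and squares Cas9 control libraries, open for DMSO and filled for ATRA. In the HK3-null cells both ATRA points lie beyond both DMSO points in every row, which holds for all called regions. It was required of the largest changes.

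TGM2, RARB and ASB2 had opening regions among the retinoid genes. Of 9 kept regions that list one of the 24 genes for retinoid receptors, retinoid metabolism and known ATRA targets, 4 opened and none closed, beside 5.38% and 9.36% of all regions, with a median log2 change of 0.45 against −0.11 over all regions. No test was run on the list. TGM2, transglutaminase 2, a classical ATRA target, had the largest rise of all regions, in an exonic region of chromosome 20 from 38132517 to 38132967. Its signals were 0 and 1.62 in DMSO and 45.9 and 40.2 in ATRA (log2 change 4.76, standard error 0.74, adjusted p = 0.000113, limma). The region at the TGM2 start (chr20:38165185-38165617) was already open in DMSO at 37.0 and 31.6 and reached 103 and 93.2 (2.81-fold, adjusted p = 0.00449, limma). TGM2 RNA went from 4, 4 and 12 normalized counts to 32339, 30084 and 39244.

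RARB, the retinoic acid receptor beta gene and itself an ATRA target, had 3 kept regions, all intronic, and 1 of them opened. That region (chr3:25389124-25389597) went from 7.64 and 4.86 to 33.4 and 46.2 (5.67-fold, adjusted p = 0.00073, limma), and the other RARB regions changed by 0.10 and 0.45 on the log2 scale without passing the test. RARB RNA was 0 in the 3 DMSO libraries and 30, 35 and 44 normalized counts in ATRA, at least 12.1-fold higher when set against 3 normalized counts per library. The promoter-proximal region of ASB2, a subunit of a ubiquitin ligase, went from 38.3 and 29.8 to 78.0 and 77.9 (adjusted p = 0.0158, limma). The ASB2 call was lost without ATRA replicate 1 (adjusted p = 0.0738), DMSO replicate 1 (0.0793) or DMSO replicate 2 (0.233). Regions listing RXRA, DHRS9 and RDH10 did not pass, with log2 changes of −0.54, −0.45 and −0.37. In RNA 10 of the 18 tested retinoid genes rose and none fell, where 8.06% of all 13256 tested genes rose and 6.05% fell. The call of CYP26B1, which also breaks down ATRA, was lost with the replicate number as a block (adjusted p = 0.0293 without and 0.116 with the block, limma). They included CYP26A1, which breaks down ATRA and went from 0, 1 and 0 to 94, 59 and 32, and CD38, an ectoenzyme that went from 197, 202 and 175 to 7982, 6844 and 6708. DHRS9 RNA also rose, from 34, 37 and 69 to 127, 157 and 208, while its promoter region had 78.0 and 67.2 in DMSO and 62.5 and 44.5 in ATRA.

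Among transcription factors of the myeloid lineage, 1 of 16 kept regions opened and 2 closed, near the shares of 5.38% and 9.36% over all regions. The opening was an intergenic region near CEBPB (chr20:50194405-50194681), which encodes C/EBP beta, a driver of granulocyte and macrophage genes. Its signal went from 9.5 and 13.2 to 81.1 and 50.1 (5.3-fold, adjusted p = 0.000279, limma). CEBPB RNA rose from 573, 560 and 780 normalized counts to 8336, 10562 and 8807. The antisense CEBPB-AS1 rose from 21, 14 and 21 to 65, 209 and 101.

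SPI1 encodes PU.1, the ETS factor of myeloid cells, and a region within it that also lists MYBPC3 closed. Signals there were 169 and 140 in DMSO and 69.6 and 79.7 in ATRA (2.06-fold, adjusted p = 0.016, and 0.0997 without ATRA replicate 1, 0.259 without DMSO replicate 1 and 0.078 without DMSO replicate 2, limma). Another SPI1 region stood at 224 and 222 in DMSO and 227 and 254 in ATRA. SPI1 RNA was 9578, 9135 and 8782 in DMSO and 12198, 12948 and 11614 in ATRA, a log2 change of 0.42 that is under the fold limit. In RNA 6 of 24 tested factors rose and 5 fell, beside 8.06% and 6.05% of all genes. MYC, the driver of proliferation, fell from 54095, 45237 and 51576 to 7575, 5403 and 7202, and GATA2, a factor of progenitors and mast cells, from 1222, 1476 and 1559 to 97, 106 and 91. The kept GATA2 region changed by −0.28 on the log2 scale and did not pass the test.

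CYBB encodes a subunit of the phagocyte NADPH oxidase, the enzyme that makes superoxide. An intronic region listing CYBB went from 3.43 and 8.29 to 24.1 and 36.9 (4.81-fold, adjusted p = 0.0134, limma). That call was lost without ATRA replicate 2 (adjusted p = 0.0748) or DMSO replicate 1 (0.192). CYBB RNA rose from 8433, 8696 and 7412 normalized counts to 47716, 45030 and 44349. NCF1, another subunit gene, rose from 548, 491 and 518 to 11363, 11704 and 10855, but it has near-identical pseudogenes that can share its reads.

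Granule protein genes had 5 kept regions, of which 1 closed and none opened, beside 9.36% and 5.38% of all regions. It lay between AZU1 and PRTN3, proteases and protease-like proteins of primary granules, and went from 53.1 and 46.8 to 14.2 and 17.6 (3.02-fold, adjusted p = 0.000802, limma). The RNA of neither was called: PRTN3 was 104309, 95354 and 92849 in DMSO and 98443, 90775 and 79271 in ATRA, and AZU1 had a log2 change of −0.29. Beside the 8.06% and 6.05% of all genes that rose and fell, of 15 tested granule genes 3 rose, DEFA4, CEACAM8 and BPI, and CTSG fell, from 3561, 3416 and 3407 to 775, 785 and 648. None of the 5 kept regions for adhesion, chemotaxis and surface receptors was called, while 11 of the 24 tested genes rose in RNA and CD44 fell. ITGAM, the CD11b integrin that marks maturing neutrophils, rose from 372, 355 and 322 to 1791, 1510 and 1915 with no kept region that lists it.

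Of 10 kept cytokine regions 1 opened and 1 closed, near the shares of 5.38% and 9.36% over all regions. The region near CCL2, a chemokine that draws monocytes, went from 15.3 and 19.7 to 59.4 and 97.5 (4.19-fold, adjusted p = 0.002, limma). CCL2 RNA rose from 479, 453 and 338 to 15625, 15972 and 9056. The intergenic region at the TNF locus on chromosome 6, which lists LTA, TNF, LTB, LST1, NCR3 and LOC100287329, closed from 134 and 175 to 45.3 and 64.9 (2.8-fold, adjusted p = 0.0057, and 0.0773 without ATRA replicate 1 and 0.142 without DMSO replicate 2, limma). TNF RNA was 2262, 1839 and 1279 in DMSO and 1826, 1854 and 1075 in ATRA, and LTB was 388, 432 and 423 and 362, 393 and 393, and neither passed the test. In RNA 3 of 16 tested cytokine genes rose, IL18, CCL2 and CCL5, and IL1B fell, beside 8.06% and 6.05% of all genes. With the replicate number as a block CCL4, at 126, 121 and 33 in DMSO and 280, 233 and 117 in ATRA, also passed (adjusted p = 0.108 without and 0.000758 with the block, limma), which made 4.

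Of 21 kept regions that list an apoptosis gene, 2 opened and 1 closed, and in RNA 5 of 25 such genes rose and 2 fell, beside 5.38% and 9.36% of all regions and 8.06% and 6.05% of all genes. A promoter-proximal region of TNFRSF10C, a decoy receptor for TRAIL, went from 13.8 and 17 to 52.4 and 58.8 (3.46-fold, adjusted p = 0.00195, limma), and its RNA rose from 29, 43 and 32 to 131, 120 and 130. A region listing BAK1, an effector of the mitochondrial pathway, went from 9.19 and 16.8 to 29.9 and 22.3 (adjusted p = 0.0486, and 0.279 without ATRA replicate 1 and 0.589 without DMSO replicate 1, limma). A region in BIK, a BH3-only gene, closed from 44.2 and 43.8 to 15.5 and 17.1 (2.61-fold, adjusted p = 0.00239, limma), and BIK RNA fell from 154, 153 and 109 to 57, 34 and 29. BCL2, the survival gene, fell in RNA from 3101, 3214 and 3384 to 492, 491 and 496.

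For hexokinases and glucose transporters only SLC2A5 and HK2 had kept regions. SLC2A5 opened as given above, and its RNA rose from 1024, 899 and 932 normalized counts to 24029, 25996 and 21389. The HK2 region had 5.83 and 4.25 in DMSO, 56.2 in ATRA replicate 1 and 8.5 in replicate 2, and did not pass (adjusted p = 0.064, limma). HK2 RNA fell from 4161, 3882 and 3445 to 1750, 1430 and 1297, while HK1, HK3 and SLC2A5 rose among the 7 tested genes. None of 14 kept regions for cell cycle genes was called, where 5.38% and 9.36% of all regions opened and closed, and 4 of 21 such genes rose and 1, CDK6, fell, beside 8.06% and 6.05% of all genes.

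Of 7 kept regions of interferon response genes 1 opened and none closed, beside 5.38% and 9.36% of all regions. It lies at IFIT1, which encodes an RNA-binding antiviral protein, and went from 70.1 and 48.6 to 117 and 122 (2.03-fold, adjusted p = 0.0187, and 0.0668 without ATRA replicate 1, 0.0544 without ATRA replicate 2 and 0.331 without DMSO replicate 2, limma). IFIT1 RNA was low and fell, from 8, 14 and 7 normalized counts to 1, 2 and 1 (log2 −2.87, adjusted p = 4.72e-05, limma). Of 15 tested interferon response genes 7 rose and 4 fell, beside 8.06% and 6.05% of all genes, and 3 fell with counts of 0 set to 1. IRF1 RNA rose from 372, 406 and 337 to 2922, 3348 and 2667, while its promoter regions changed by 0.88 and 0.04 on the log2 scale without passing the test.

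Regions listing markers of other cell types were few. A PAX5 region was called as opening from 2.36 and 6.0 in DMSO, but only ATRA replicate 1 was high, at 55.5 against 8.09 in replicate 2 (adjusted p = 0.0217, and 0.504 without ATRA replicate 1 and 0.113 without DMSO replicate 1, limma). An intergenic region near SIGLEC8, a receptor of eosinophils, went from 53.9 and 55.1 to 134 and 191 (2.9-fold, adjusted p = 0.000872, limma), and its RNA was 36, 34 and 39 in DMSO and 11, 7 and 12 in ATRA (log2 −1.9, adjusted p = 0.0534, and 0.000377 with counts of 0 set to 1, limma). An HDC region went from 22.8 and 20.1 to 53.1 and 34.9 (adjusted p = 0.0319, and 0.286 without ATRA replicate 1, 0.13 without DMSO replicate 1 and 0.225 without DMSO replicate 2, limma), and a FLT3 region closed from 89.0 and 81.4 to 18.9 and 43.2 (adjusted p = 0.00278, and 0.0908 without ATRA replicate 1, limma). Summed normalized counts of the 7 eosinophil, basophil and mast cell markers did not overlap, at 163493 to 171205 in DMSO and 43163 to 52198 in ATRA, and came mostly from PRG2, the eosinophil granule protein and the only 1 of 5 tested genes called on the deposited values. Those of 8 monocyte and macrophage markers were 1705 to 1720 and 5014 to 5371, where CD68 was the only 1 of 6 tested genes to rise on the deposited values and MRC1 was listed at 0. T cell and NK cell markers summed to 447 to 462 and 1132 to 1228, where NKG7 rose and CD247 fell of 3 tested. B cell markers summed to 147 to 177 and 163 to 194, with none of 2 tested genes called and MS4A1 at 0. Erythroid and megakaryocytic markers summed to 56 to 85 and 38 to 58, with HBB, HBA1 and PF4 at 0 and KLF1 lower, and stem and progenitor markers to 1344 to 1377 and 968 to 1069, with KIT higher. The kept regions of the erythroid and of the monocyte markers, 1 each, were not called, and no kept region lists a T cell or NK cell marker. Their part in the region changes was not tested, and fewer cells of a type and less RNA or signal per cell cannot be told apart in bulk samples.

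RNA was then read for the genes that the called regions list. Opening regions list 325 genes, of which 177 were tested in RNA, 67 rose (37.9%) and 6 fell (3.39%), with a median log2 change of 0.58. Closing regions list 622 genes, of which 333 were tested, 22 rose (6.61%) and 58 fell (17.4%), with a median of −0.19. Over all kept regions 2599 of the 5019 listed genes were tested, 297 rose (11.4%) and 183 fell (7.04%), with a median of 0.05. Genes were called in limma on the deposited log2 values of all 12 RNAseq libraries, with a fold of 2 or more required beside an adjusted p under 0.05. These are counts with no test of the difference.

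Promoter-proximal regions were also counted apart. The 51 opening ones list 54 tested genes, of which 23 rose (42.6%) and 1 fell, and the 93 closing ones list 106, of which 5 rose and 26 fell (24.5%). At the other opening regions 47 of 127 tested genes rose (37.0%), and at the other closing regions 34 of 231 fell (14.7%). With the 262 opening and 472 closing regions whose ATRA libraries lay within 2-fold, 63 of 164 genes rose and 5 fell, and 20 of 318 rose and 57 fell. Among the 13 tested genes of the 30 openings that were high in replicate 1 alone, 4 rose and 1 fell.

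**Figure D4:**
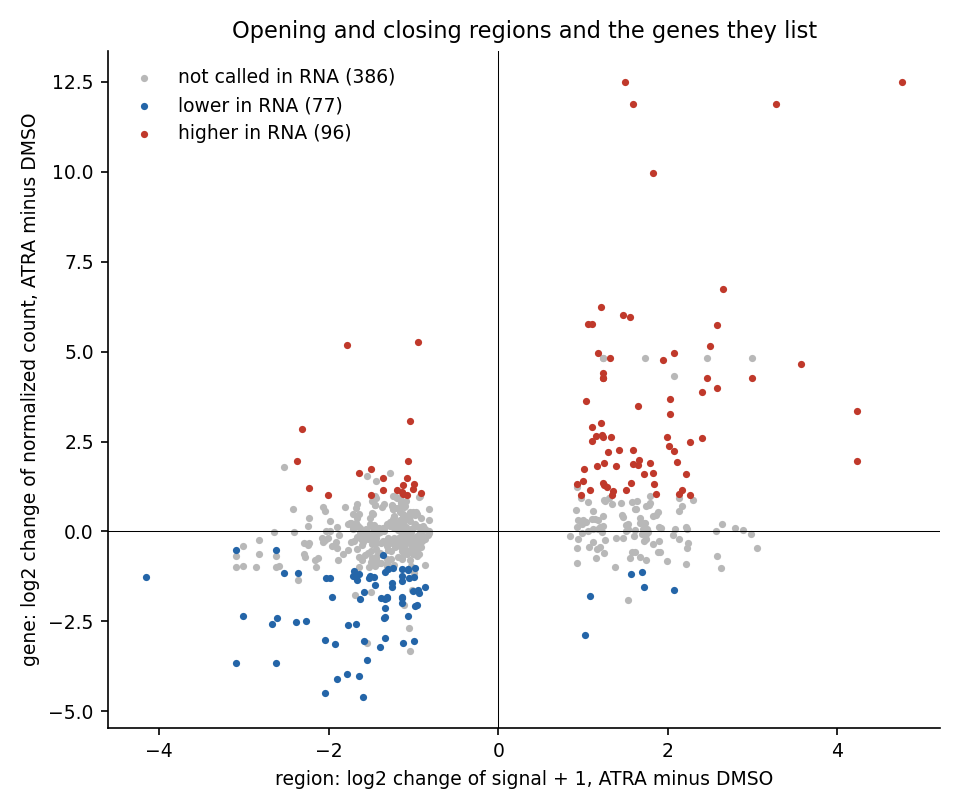
Log2 change of ATACseq signal (x axis) against the log2 change of the normalized RNA count (y axis, with counts of 0 set to 1) for the 559 pairs of an opening or closing region and a tested gene it lists in HK3-null cells. Genes called higher (96 pairs, red) lie mostly on the opening side and genes called lower (77 pairs, blue) mostly on the closing side, and 386 pairs have a gene that was not called (grey).

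As pairs of a region and a gene, 74 opened with a gene that rose and 71 closed with a gene that fell, while 6 opened with a gene that fell and 22 closed with a gene that rose, among 3807 pairs in all. PTGES, the prostaglandin E synthase gene, opened at its start (chr9:129752874-129753316) from 11.9 and 7.36 to 124 and 79.9 (9.69-fold, adjusted p = 8.83e-06, limma). Its RNA went from 0, 1 and 6 normalized counts to 7006, 7794 and 5906. CYP27A1, the mitochondrial sterol hydroxylase that also acts on vitamin D, opened in an intron (chr2:218811339-218811818) from 28.5 and 21.9 to 162 and 164 (6.3-fold, adjusted p = 1.1e-05, limma). CYP27A1 RNA rose from 3, 2 and 2 to 252, 247 and 240. A region in TMIE that also lists ALS2CL went from 6.7 and 8.91 to 58.9 and 44.4 (5.97-fold), and ALS2CL RNA rose from 32, 16 and 14 to 765, 878 and 1601. TMIE RNA was 1, 0 and 0 in DMSO and 11, 12 and 30 in ATRA, with an adjusted p of 0.0378 that became 0.0989 with the replicate number as a block (limma).

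SLA encodes an adaptor protein that dampens receptor signalling in leukocytes, and it lies inside the thyroglobulin gene TG. A region listing TG and SLA went from 2.67 and 4.44 to 38.8 and 30.6 (7.93-fold, adjusted p = 0.00103, limma), and 4 of the 10 kept regions that list SLA opened. SLA RNA rose from 740, 907 and 1104 to 17010, 18303 and 16958. TG, with 1, 2 and 2 counts in DMSO and 42, 56 and 39 in ATRA, was not called on the deposited values (adjusted p = 0.0783) but passed with counts of 0 set to 1 (adjusted p = 1.38e-06, log2 4.83 in both, limma), and reads of overlapping genes may be shared.

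On the closing side CCDC26, a long non-coding RNA gene, went from 548 and 516 to 65.1 and 106 (6.33-fold, adjusted p = 1.57e-06, limma), the highest DMSO signals among the named regions, and its RNA fell from 273, 231 and 215 to 48, 40 and 33. BAHCC1, a chromatin reader of histone methylation, closed in an intron from 107 and 82.7 to 12.8 and 16.7 (6.09-fold, adjusted p = 2.99e-06, limma), and its RNA fell from 11258, 10259 and 9900 to 2176, 1967 and 1744. TNFAIP8 had the most closing regions, 4 of its 4 kept, with an RNA log2 change of −0.62 that is under the fold limit. All 3 kept regions of MIR17HG, the host of the miR-17-92 cluster, and all 3 of NPM1, the nucleolar chaperone mutated in many leukemias, also closed, with RNA log2 changes of −1.29 and −0.79. TNFAIP8, MIR17HG and NPM1 were picked by their number of closing regions after the values were seen, and regions of 1 locus are not independent. TNFAIP8 and NPM1 lie on chromosome 5 and MIR17HG on chromosome 13, where 19.0% and 23.0% of kept regions closed, against 9.36% of all. Most kept regions of chromosomes 5, 13 and 15 came from the lower side of the authors' selection, and its part in these closings was not tested.

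**Figure D5:**
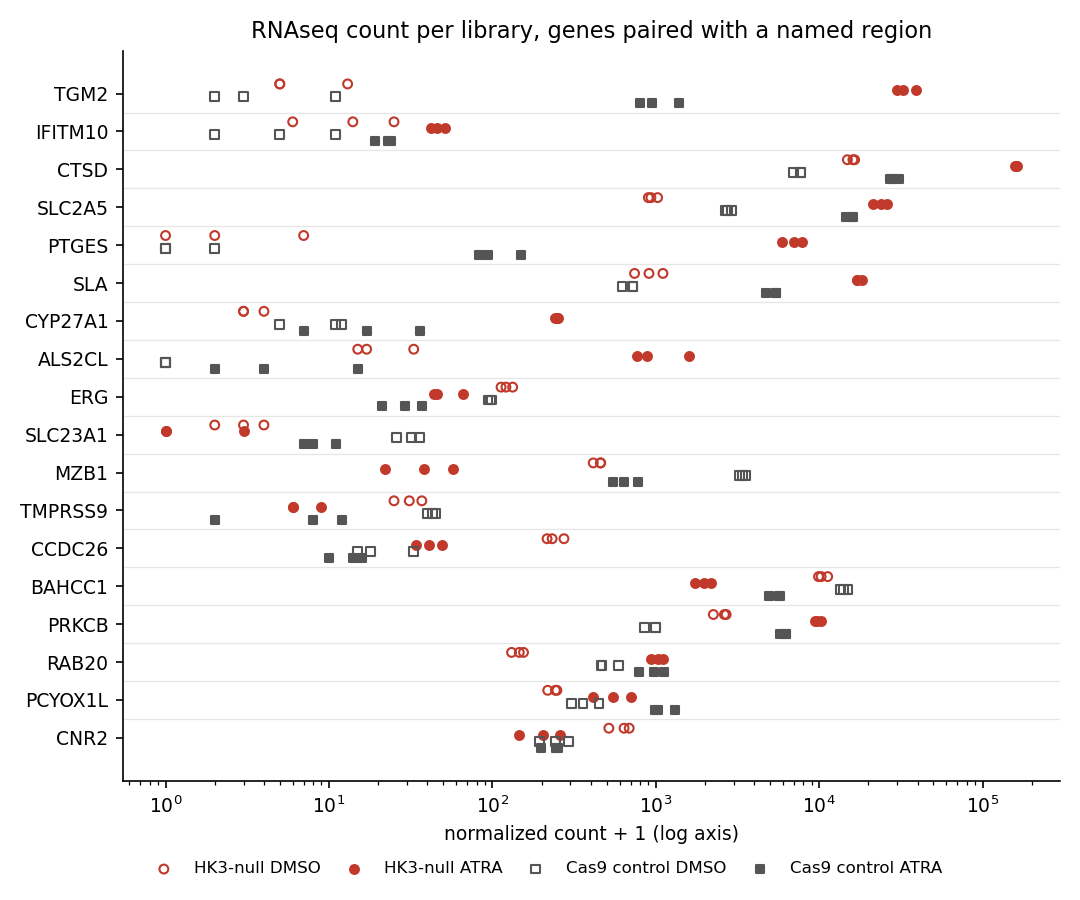
Normalized RNAseq count plus 1 (log x axis) of each library for the genes paired with a named region, in HK3-null (circles) and Cas9 control cells (squares), open for DMSO and filled for ATRA. From TGM2 to ALS2CL the HK3-null ATRA points lie above the DMSO points, from ERG to BAHCC1 they lie below except in SLC23A1, where the treatments overlap, and the last 4 genes moved against their region.

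The largest changes in opposite directions were closings at genes that rose. A region in PRKCB, a protein kinase C gene, closed from 91.7 and 94.1 to 13.4 and 21.9 (5.17-fold, adjusted p = 9.2e-06, limma), while its RNA rose from 2691, 2627 and 2248 to 10314, 9446 and 9685. A region in RAB20, a GTPase of phagosomes, closed from 79.4 and 74.6 to 12.7 and 17.1 (4.95-fold), while its RNA rose from 145, 130 and 154 to 1106, 1036 and 930. A region listing PCYOX1L, GRPEL2, IL17B and LOC105378223 closed 4.68-fold while PCYOX1L rose, from 247, 217 and 242 to 549, 413 and 704. A region listing FUCA1, a lysosomal fucosidase, and CNR2, a cannabinoid receptor, opened from 19.5 and 14.5 to 72.5 and 75.4 (4.22-fold), and there FUCA1 rose from 714, 712 and 700 to 3253, 3380 and 3339 while CNR2 fell from 686, 638 and 515 to 259, 204 and 145.

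In Cas9 control cells the same regions moved mostly in the same direction. Limma called 104 opening (1.91%) and 761 closing (14.0%) there, with a median change over all regions of −0.27 on the log2 scale. Of the 293 regions that opened in HK3-null cells 71 also opened in Cas9 control (24.2% of the HK3-null list and 68.3% of the Cas9 list) and 1 closed, and of the 510 that closed 281 also closed (55.1% and 36.9%) and none opened. The Cas9 counts depended on single libraries: without Cas9 control ATRA replicate 1 they were 45 and 1117, without ATRA replicate 2 105 and 390, without DMSO replicate 1 60 and 463, and without DMSO replicate 2 60 and 300. The direction was the same in 259 of 293 and in 500 of 510. With a median of −0.27 over all regions in Cas9 control, a fall there was common in regions of any kind. The share over all kept regions is not given. Median changes were 1.6 in HK3-null and 0.66 in Cas9 control over the opening regions, and −1.36 and −1.03 over the closing ones. The regions were selected on the ATRA libraries of both genotypes, so these shares are a description.

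The ATRA change itself differed between the genotypes in 11 of the 5451 regions (0.202%), at an adjusted p under 0.05 for the interaction in limma, with 9 more positive and 2 more negative in HK3-null cells. At IFITM10 and CTSD the Cas9 control signals were 5.52 and 3.38 in DMSO and 15.1 and 8.67 in ATRA, and the difference from HK3-null was 3.01 on the log2 scale (standard error 0.61, adjusted p = 0.0391, limma). At CYP27A1 they were 15.8 and 21.8, then 22.9 and 12.3, with a difference of 2.79 (standard error 0.48, adjusted p = 0.0314, limma). At BAHCC1 they were 78.6 and 91.3, then 62.8 and 49.6, with a difference of −2.01 (standard error 0.42, adjusted p = 0.0441, limma). FBLN1, which encodes an extracellular matrix protein, opened in both genotypes, from 20.9 and 18.2 to 164 and 184 in HK3-null and from 28.3 and 30.0 to 74.2 and 55.6 in Cas9 control, and a region of SLC12A7 closed to 8.0 and 9.88 in HK3-null against 86.1 and 55.4 in Cas9 control ATRA. In the regions of IL1R1, PI4KB, BMPER and LOC102723440 and 1 on chromosome X, Cas9 control signal fell while the change in HK3-null was not called. The difference at TGM2 was larger, 4.12, but had a standard error of 1.05 and did not pass (adjusted p = 0.121, limma). Without HK3-null ATRA replicate 1 limma called 0 regions, with 592 at an unadjusted p under 0.05 against 645 with all libraries, so none of the 11 calls held without that library. It also called 0 without Cas9 control ATRA replicate 2, DMSO replicate 1 or DMSO replicate 2 (665, 600 and 423 at an unadjusted p), 2 and 4 without HK3-null DMSO replicate 1 or 2, and 116 without Cas9 control ATRA replicate 1.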

How the data were processed

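ATACseq and RNAseq of HL60 cells were compared between ATRA and DMSO in cells labelled HK3-null, with Cas9 control cells beside them, and groups were taken from the sample labels. The authors mapped ATACseq reads to hg38 with bwa mem, removed duplicate and non-unique reads, merged the peaks found by MACS2 into common regions and reduced tags to the smallest sample. The deposited ATACseq values are a signal, the tag height per region, so the depth of each library is unknown and no counting interval is given. The deposited RNAseq values are log2 of whole numbers, read back here as normalized counts. The authors' labels name DESeq2 and their methods name RPKM, and whole numbers point to scaled counts not divided by gene length. The RNAseq values carry a fixed low number where a count is 0, so the fitted fold of a gene at 0 in a group depends on it. Deposited fold changes and p-values of the authors' comparisons were not used.

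Regions with a mean signal of 17 or more over the 4 HK3-null ATACseq libraries were kept, and log2(signal + 1) was fitted with limma 3.58.1 in R 4.3.3 (lmFit and eBayes with a trend, 8 libraries). RNAseq used the same tools on 12 libraries and genes with a log2 group mean above 3. Calls needed a p under 0.05 after Benjamini-Hochberg adjustment over all regions or genes tested, with a fold of 1.5 for regions and 2 for genes. Scripts were tested on simulated data. RNAseq entries that name no gene (330, holding 0.00926% of normalized counts or less) were left out, and 13 gene names turned into dates stayed in the fit.

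The named regions are the 6 largest rises and falls with a mean of 50 or more in the higher group, up to 3 called regions for each of 16 gene lists, and the largest pairs of a region and a gene called in the same or in opposite directions. The largest rises and falls were taken only from called regions whose ATRA libraries both lay beyond both DMSO libraries. The members and lists were chosen with earlier results of these data known. ATACseq libraries of the same replicate number did not deviate together (correlations of −0.17 to 0.0559), whereas all same-numbered RNAseq libraries did (0.271 to 0.69). The main RNAseq fit did not use this pairing, so RNA calls and p-values are unpaired except where a replicate block is named. With the block 1120 genes were higher and 818 lower in HK3-null cells, against 1069 and 802 without it. Alternatives covered the filter, pseudocount, scaling, thresholds, replicate block and each HK3-null library left out, and leaving out each Cas9 control ATACseq library was added after seeing the data. Sequences were read from GRCh38. Coordinates are as deposited, and whether starts count from 0 or 1 was not stated. Some items are not reported here.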

Additional observations from a re-analysis of the deposited data

Results flagged for a closer look

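The change with ATRA differed between HK3-null and Cas9 control cells in 11 regions by the interaction test in limma, all at an adjusted p under 0.05. The difference, HK3-null minus Cas9 control on the log2 scale, was 3.56 at IL1R1, 3.01 at IFITM10 and CTSD, 2.79 at CYP27A1, 2.61 in a region without a listed gene on chromosome X, 2.47 in 1 without a listed gene on chromosome 7, 2.39 at LOC102723440, 2.28 at BMPER, 2.26 at PI4KB, 1.98 at FBLN1, −2.01 at BAHCC1 and −2.26 at SLC12A7 and LOC105374612. No region was called in limma when any 1 of 4 libraries was left out (HK3-null ATRA replicate 1, Cas9 control ATRA replicate 2 or either Cas9 control DMSO replicate), with 592, 665, 600 and 423 regions at an unadjusted p under 0.05. The deposited regions were chosen on the ATRA libraries of both genotypes, and the part of that choice in these differences was not tested. With 2 or 3 libraries in a group, no library could be tested as lying apart from its group.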

How the results depend on the processing

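The number of calls depended on the processing. Opening and closing regions numbered 127 and 245 at a mean signal of 50 or more, 620 and 802 after quantile normalization, and 617 and 903 at an unadjusted p, while a pseudocount of 10 gave 440 opening regions. Setting the medians equal gave 439 and 526, so that opening regions were 45.5% of calls against 36.5%. Leaving out 1 library gave 148 to 395 opening and 227 to 634 closing regions over all 8 libraries. Genes higher and lower numbered 1808 and 1716 at a fold of 1.5. Genes of opening regions called higher were 31 at a mean of 50, 105 after quantile normalization, 34 from regions that list 1 gene and 37 to 65 with 1 library left out, and those called lower were 2, 12 and, with the replicate block, 12, or 13 at an RNA fold of 1.5, and 2 to 14 with 1 library left out. Genes of closing regions called higher were 10, 34, 14 and 46 at a mean of 50, after quantile normalization, from 1-gene regions and at an RNA fold of 1.5, and 8 to 26 with 1 library left out, and those called lower were 35, 26 and 88 at a mean of 50, from 1-gene regions and at an RNA fold of 1.5, and 35 to 66 with 1 library left out. Regions whose change differed between genotypes were 40 at a mean of 50, 159 after quantile normalization and 20 with the replicate block, and 0 to 12 with 1 HK3-null library left out and 0 to 116 with 1 Cas9 control library left out. The causes were not tested.

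With the replicate block ATACseq gave 347 opening and 490 closing regions, but its numbers did not pair the libraries. A crossed block, chosen after seeing the data, gave 416 and 572. In RNAseq the pairing changed the call of TMIE alone among the genes that a named region lists. Keeping only regions whose ATRA libraries lay within 2-fold, also chosen after seeing the data, left 262 and 472. The log2 change of TNF in RNA turned to 0.076 without HK3-null ATRA replicate 3 and to 0.004 without DMSO replicate 1, and ranged from −0.407 to 0.076 with 1 library left out. Of the other values under alternatives, 400 for regions and 508 for genes kept their side of the threshold, 25 and 36 lost the call and 4 for genes gained it. With 2 ATACseq libraries a group, changes that differ between libraries could not be measured precisely.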
